A study of Mus musculus with 10 samples.

Results

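Tumors raised in mice with a nuclear, constitutively active YAP1, named NLS-2SA-YAP1 in the labels, were compared with tumors raised with the fusion YAP1-MAML2-v2, using only the tumors outside the ventricle. Members were chosen by the region label alone: 9 of the 10 libraries came from extra cranial or extra axial tumors, and the intra ventricular library, YAP1-MAML2-v2 replicate 7, was left out. NLS-2SA-YAP1 had 3 libraries, of which replicate 1 was extra axial and replicates 2 and 3 extra cranial. YAP1-MAML2-v2 had 6 libraries, of which replicates 2 and 6 were extra axial and replicates 1, 3, 4 and 5 extra cranial. Both groups shared host and delivery. Chicken DF1 fibroblasts, which shed an RCAS avian retrovirus carrying the construct, were injected under the arachnoid of p0-p3 pups that were null for Cdkn2a and carried the viral receptor tv-a under Nestin, so only cells with Nestin promoter activity can take up the virus. All tumors were otherwise untreated, whole frozen tumor tissue was ground for RNA, and the labels' cell type entry names only the DF1 producer cells. The labels name no strain or age at collection, nor do they say that each library is a separate mouse, so p-values measure the spread between these libraries. No tumor-free tissue was analysed here.

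YAP1 is a transcriptional coactivator that has no DNA-binding domain and works with TEAD proteins. The Hippo kinases, with LATS1 and LATS2 at the end of the chain, phosphorylate YAP1 so that it stays in the cytoplasm, and NF2, the classic meningioma tumor suppressor, acts upstream of them. MAML2 is a coactivator of Notch, a pathway in which the receptor's cleaved part joins the DNA-binding protein RBPJ. The fusion replaces the end of YAP1 with part of MAML2. Meningiomas arise from the arachnoid, a layer of the membranes around the brain. The comparison asks how tumors raised with the fusion and with the nuclear, constitutively active YAP1 differ. The constructs thus differ in more than the fusion to MAML2.

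Expression is given as CPM, each gene's count relative to its library's total after TMM scaling, which corrects for differences in composition between libraries. The smallest and the largest total, 28001143 and 43039765, both belonged to extra cranial NLS-2SA-YAP1 tumors, but the deposited values are not plain read counts: genes listed at 1 outnumber those listed at 2 by 4.54 to 6.82 times in every library. Depth is therefore unknown, and a fold that rests on values of 0 or 1 was not read as a size. Across genes, log2 CPM of 2 libraries correlated at 0.756 to 0.860 between constructs (median 0.818, 18 pairs), at 0.821 to 0.904 within NLS-2SA-YAP1 (median 0.845, 3 pairs) and at 0.776 to 0.911 within YAP1-MAML2-v2 (median 0.843, 15 pairs), so pairs of the same construct were only a little more alike. VIM, the intermediate filament of meningioma cells, stood at 3139 to 16654 CPM in all 9 libraries. SSTR2, a somatostatin receptor and diagnostic stain for meningioma, had a listed 0 in NLS-2SA-YAP1 replicate 2 and in YAP1-MAML2-v2 replicates 1, 3, 5 and 6. The arachnoid enzyme gene PTGDS was at 0 in the fifth fusion tumor, YAP1-MAML2-v2 replicate 5. The Y-linked genes DDX3Y, UTY and KDM5D were listed at 0 in NLS-2SA-YAP1 replicate 1 and YAP1-MAML2-v2 replicate 1, that is in 1 of 3 and 1 of 6 libraries.

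The delivered genes were read first, since they check the labels. YAP1 reached 425, 595 and 528 CPM in the tumors of NLS-2SA-YAP1 (replicates 1 to 3), whereas the 6 of YAP1-MAML2-v2 spanned 140 to 174 CPM with a median of 149 CPM. Every NLS-2SA-YAP1 library lay above every YAP1-MAML2-v2 library, and the fusion tumors were tightly grouped. The mean of YAP1 was 153 ± 12.8 CPM (SD, n = 6) with the fusion and 516 ± 85.8 CPM (SD, n = 3) with NLS-2SA-YAP1. MAML2 stood at 9.89, 20.9 and 18.8 CPM in replicates 1 to 3 of NLS-2SA-YAP1, against 30.7 to 128 CPM with a median of 45.4 CPM in YAP1-MAML2-v2. Here the order was the reverse, again with no overlap, and the highest value belonged to the extra axial YAP1-MAML2-v2 replicate 2. An exact two-sided permutation test over the 84 ways to pick 3 of 9 libraries gave p = 0.0238 for each gene, the smallest p this design allows, with 0.0238 after Benjamini-Hochberg adjustment over the 2 genes. The difference in mean log2 CPM was 1.75 for YAP1 and -1.72 for MAML2. In edgeR's quasi-likelihood test with Benjamini-Hochberg adjustment over all genes, the fitted log2 fold change of YAP1 was 1.75 (SE 0.26, adjusted p = 0.0792) and that of MAML2 -1.76 (SE 0.53, adjusted p = 0.238), so neither passed there. Yap1 lies on chromosome 9 at 7931999 to 8004596 on the minus strand (mm10). With 1 value per gene, viral and mouse transcript cannot be told apart. The fusion holds only part of YAP1, so YAP1 CPM is not an equal measure of the delivered construct in both groups.

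CDKN2A, for which the mice are null by label, ran from 1.21 to 6.21 CPM with NLS-2SA-YAP1 and from 0.198 to 18.2 CPM with the fusion (edgeR adjusted p = 0.759). Without the extent of the deletion, this value is no check of the genotype. NES, whose promoter drives the receptor, was at 80, 12.7 and 5.76 CPM with NLS-2SA-YAP1 and at 13.4 to 106 CPM with the fusion (edgeR adjusted p = 0.731). Both genes overlapped between the constructs.

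**Figure D1:**
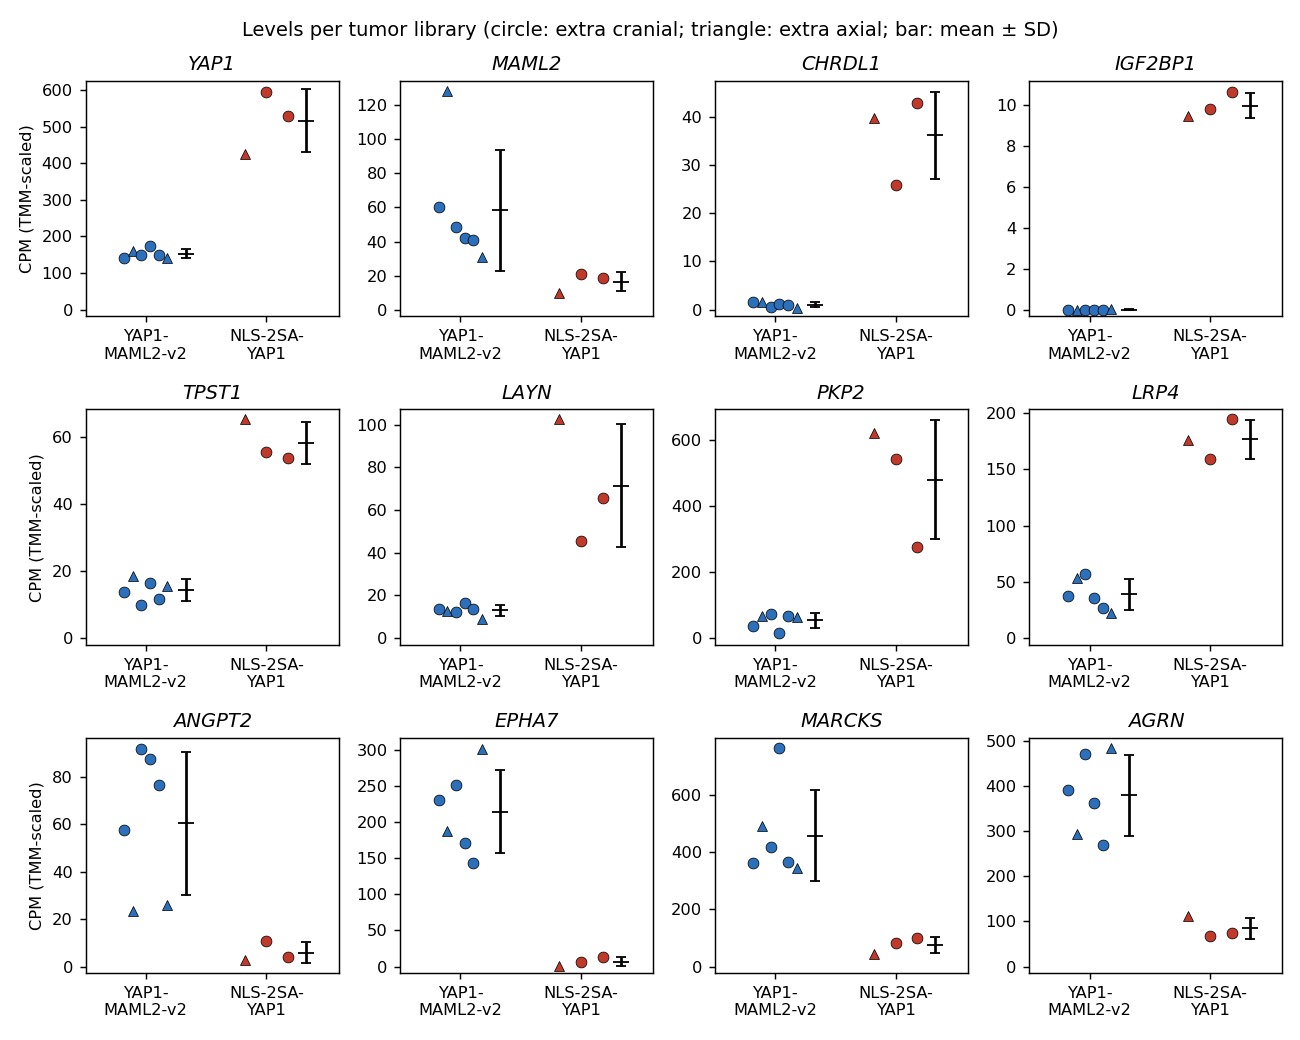
CPM of 12 genes in each library, NLS-2SA-YAP1 in red and YAP1-MAML2-v2 in blue, with circles for extra cranial and triangles for extra axial tumors and bars for the mean ± SD of each construct. YAP1 reaches 425 to 595 CPM in NLS-2SA-YAP1 against 140 to 174 CPM, EPHA7 stays at or below 13.1 CPM there against at least 144 CPM, and no panel shows an overlap of the constructs.

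Over all 13487 genes tested, a model with construct and region called 2 genes, CHRDL1 and IGF2BP1, at an adjusted p under 0.05 (0.0148% of the genes tested), and both rose in NLS-2SA-YAP1. Without an adjustment for the number of genes, 738 genes had a p under 0.05 in the higher direction (5.47%) and 1032 in the lower (7.65%). The constructs did not overlap in 648 genes that were higher in NLS-2SA-YAP1 (4.8%) and in 583 that were lower (4.32%). DESeq2, another count test, called 215 genes higher (1.66%) and 450 lower (3.47%) of the 12986 genes to which it gave an adjusted p. Of these 665 calls 86 had a library listed at 0 or 1. The median log2 fold change over all genes was -0.03, with 6532 genes higher and 6955 lower.

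CHRDL1 encodes chordin-like 1, a secreted protein that binds bone morphogenetic proteins and keeps them from their receptors. CHRDL1 stood at 39.8, 25.9 and 42.9 CPM in replicates 1 to 3 of NLS-2SA-YAP1, and 0.339 to 1.65 CPM with a median of 1.04 CPM in YAP1-MAML2-v2. The lowest NLS-2SA-YAP1 tumor was thus far above the highest fusion tumor, a log2 fold change of 5.16 for CHRDL1 (SE 0.58, edgeR adjusted p = 0.0295, higher in 3 of 3 libraries). Chrdl1 lies on chromosome X at 143285674 to 143394262 on the minus strand (mm10). IGF2BP1 encodes an RNA-binding protein of fetal tissue that stabilizes its target mRNAs, among them that of IGF2. It reached 9.47, 9.78 and 10.6 CPM with NLS-2SA-YAP1 and was at 0 in replicates 1 to 5 of the fusion, while replicate 6 had 0.0282 CPM, a deposited value of 1. The 3 NLS-2SA-YAP1 tumors lay close together (9.96 ± 0.598 CPM, SD, n = 3; edgeR adjusted p = 0.0295), and no fold is given against values of 0 and 1. Igf2bp1 lies on chromosome 11 at 95957163 to 96005940, also on the minus strand.

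Both calls were kept without YAP1-MAML2-v2 replicate 1 or 3. They were lost when any NLS-2SA-YAP1 replicate was left out, and without YAP1-MAML2-v2 replicates 2, 4, 5 or 6, with edgeR adjusted p-values of up to 0.200 for CHRDL1 and 0.230 for IGF2BP1, whereas the fold of CHRDL1 hardly moved, from 4.94 to 5.52 on the log2 scale. Without the libraries listed at 0 for the Y-linked genes, CHRDL1 had a log2 fold change of 5.32 and an edgeR adjusted p of 0.455.

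A looser line, an adjusted p under 0.1, was added after the data were seen and held 28 genes (0.208% of those tested), 15 higher and 13 lower in NLS-2SA-YAP1. All 28 were also called by DESeq2 and 25 by limma-voom with sample quality weights. In all 28 the constructs did not overlap, which a choice by small p favors. The genes described next are the 12 of smallest p in each direction whose mean log2 CPM reached 1, with no library at 0 or 1, the same sign without each library in turn and no clone-like name. Some of them lie outside that line, and none but CHRDL1 passed 0.05 in edgeR.

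**Figure D2:**
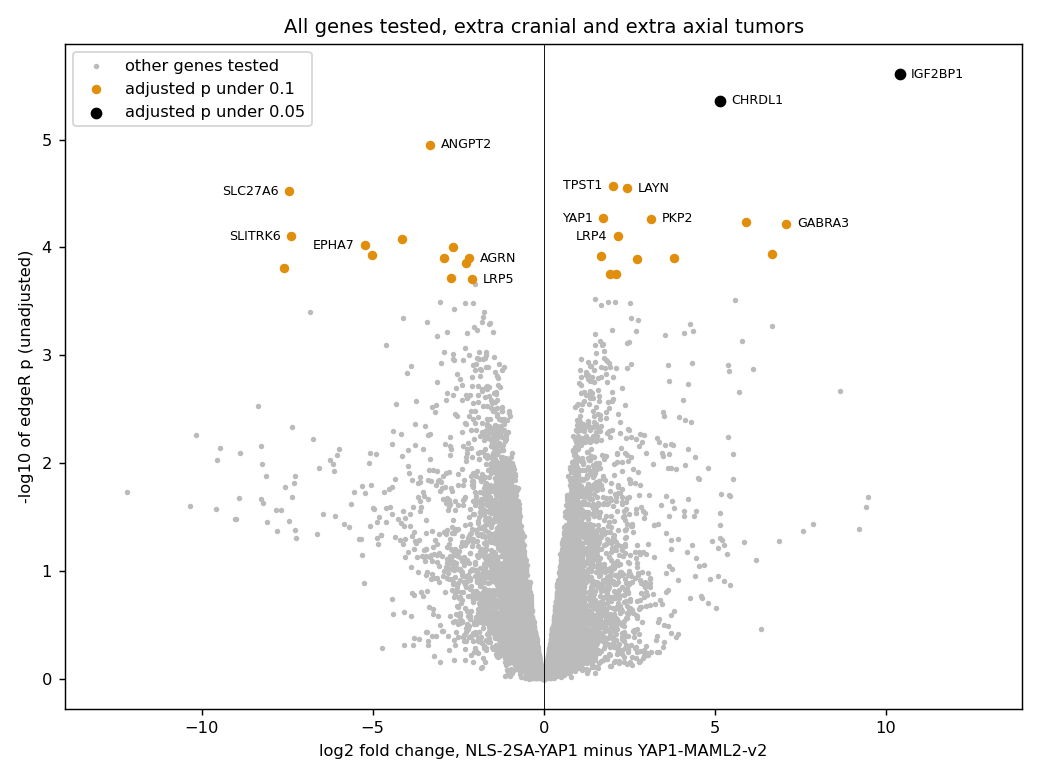
Log2 fold change (NLS-2SA-YAP1 minus YAP1-MAML2-v2) against -log10 of the unadjusted edgeR p for the 13487 genes tested. The 2 genes past 0.05 (black) are both to the right, and the 26 further genes under an adjusted p of 0.1 (orange) lie on both sides. IGF2BP1, GABRA3, SLC27A6 and SLITRK6 lie far out because some of their libraries are at 0 or 1, so their position is no measure of size.

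The genes higher in NLS-2SA-YAP1 held no single family. TPST1, an enzyme of the Golgi that adds sulfate to tyrosines of secreted and membrane proteins, had 65.4, 55.5 and 53.8 CPM against 9.94 to 18.5 CPM (log2 fold change 2.03, SE 0.28, edgeR adjusted p = 0.0679). LAYN encodes layilin, a membrane receptor for hyaluronan, and had 102, 45.6 and 65.8 CPM against 8.86 to 16.6 CPM (2.44, SE 0.34, edgeR adjusted p = 0.0679). In both genes the fusion tumors were tightly grouped, and in LAYN the extra axial NLS-2SA-YAP1 replicate 1 was the highest. VAMP5, a SNARE protein of membrane fusion, stood at 50 to 71 CPM against 17.3 to 28.2 CPM. SNX7, a sorting nexin of the endosomes, stood at 55 to 74.9 CPM against 15.4 to 23.5 CPM. OSBPL1A, of the oxysterol-binding protein family, had 98.6 to 185 CPM against 27.5 to 58.3 CPM. The gaps of these 3 genes were smaller than those of CHRDL1 but equally free of overlap.

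PKP2 encodes plakophilin 2, which ties desmosomal cadherins to intermediate filaments, and it stood at 621, 541 and 277 CPM in replicates 1 to 3 of NLS-2SA-YAP1 against 14.1 to 74.2 CPM with a median of 65 CPM (log2 fold change 3.14, SE 0.47, edgeR adjusted p = 0.0792). The extra cranial NLS-2SA-YAP1 replicate 3 was the lowest of its group and still above every fusion tumor. CLDN1, a claudin of tight junctions, had 4.88, 61.1 and 43.5 CPM against 0.841 to 13.9 CPM, so that the extra axial NLS-2SA-YAP1 tumor fell among the fusion tumors. The neural cadherin CDH2 was at 1.69 to 13.9 CPM against 8.85 to 96.8 CPM (edgeR adjusted p = 0.269). Of 18 desmosome and epithelial junction genes tested, 11 were higher and 7 lower, with a median log2 fold change of 0.34 beside -0.03 over all genes.

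LRP4 and AGRN, a receptor and its ligand, stood on opposite sides. LRP4 is the muscle receptor for agrin and also binds WNT inhibitors, and it had 176, 159 and 195 CPM in NLS-2SA-YAP1 against 22.5 to 57.2 CPM with a median of 36.5 CPM (log2 fold change 2.18, SE 0.34, edgeR adjusted p = 0.0792). AGRN encodes agrin, a heparan sulfate proteoglycan of basement membranes, and it had 112, 67.5 and 75 CPM against 269 to 486 CPM with a median of 378 CPM (-2.19, SE 0.36, edgeR adjusted p = 0.0792). All 9 libraries fell on their construct's side for both genes. Lrp4 lies on chromosome 2 at 91457511 to 91513779 and Agrn on chromosome 4 at 156165290 to 156197488 (mm10).

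Of the remaining higher genes, ARHGEF16, a guanine nucleotide exchange factor, had 10.4 to 30.1 CPM against 0.256 to 2.71 CPM (log2 fold change 3.82, SE 0.63, edgeR adjusted p = 0.0792). RADIL, an effector of the adhesion GTPase Rap, had 20.9 to 34 CPM against 1.98 to 5.44 CPM (2.74, SE 0.45). TMEM160, a small transmembrane protein, was the most even, with 33.3 ± 1.68 CPM (SD, n = 3), and the fusion tumors had 7.67 ± 2.5 CPM (SD, n = 6). Of genes outside the rule and named after their values were seen, SCEL, a protein of the cornified envelope, had 41.9 to 115 CPM against 0.0284 to 3.01 CPM, and GABRA3, a subunit of the GABA-A receptor, had 68.5, 28.9 and 4.19 CPM against at most 0.497 CPM. CCDC141 had 2.44 to 3.19 CPM against at most 0.0767 CPM. All 3 had an edgeR adjusted p of 0.0792, and each had fusion libraries at a deposited value of 1, so no fold is given.

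Among the genes lower in NLS-2SA-YAP1, ANGPT2 came closest to the threshold. It encodes angiopoietin-2, which blocks or activates the endothelial receptor TIE2 depending on the setting, and it had 2.73, 10.8 and 4.14 CPM in NLS-2SA-YAP1 against 23.4 to 91.9 CPM with a median of 67 CPM in YAP1-MAML2-v2 (log2 fold change -3.32, SE 0.41, edgeR adjusted p = 0.0503, lower in 3 of 3 libraries). The fusion tumors split by region here: extra axial replicates 2 and 6 had 23.4 and 26 CPM, while the 4 extra cranial ones had 57.5 to 91.9 CPM. NLS-2SA-YAP1 had its lowest value in the extra axial tumor as well. Angpt2 lies on chromosome 8 at 18690263 to 18741562 on the minus strand (mm10).

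EPHA7 encodes an EPH receptor tyrosine kinase that is bound by ephrin-A ligands on neighboring cells, and it had 0.87, 5.8 and 13.1 CPM in NLS-2SA-YAP1 against 144 to 301 CPM with a median of 209 CPM (log2 fold change -5.21, SE 0.83, edgeR adjusted p = 0.0792). SLC16A12, a transporter of the monocarboxylate family, had 1.06, 2.16 and 3.64 CPM against 12.4 to 103 CPM with a median of 84.4 CPM (-5.02, SE 0.82, edgeR adjusted p = 0.0792). YAP1-MAML2-v2 replicate 3 was the low fusion tumor of SLC16A12 and still above all 3 NLS-2SA-YAP1 tumors. Epha7 lies on chromosome 4 at 28813131 to 28967499 on the plus strand and Slc16a12 on chromosome 19 at 34668403 to 34747289 on the minus strand (mm10).

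MARCKS, MYO10 and SORBS2 encode proteins that act on actin. MARCKS, which links actin to the membrane and leaves it when protein kinase C phosphorylates it, had 44.9, 81.4 and 101 CPM against 343 to 763 CPM (log2 fold change -2.65, SE 0.42, edgeR adjusted p = 0.0792). MYO10, the myosin that builds filopodia, had 15.5 to 33.6 CPM against 90.8 to 247 CPM (-2.70, SE 0.47). SORBS2, an adaptor of stress fibers, had 3.26 to 5.13 CPM against 16 to 47.9 CPM (-2.90, SE 0.48). In each of the 3 the lowest fusion tumor was well above the highest NLS-2SA-YAP1 tumor. SASH1, a scaffold with an SH3 domain, had 15.2 to 18.8 CPM against 60.4 to 147 CPM. ARAP2, which turns off ARF GTPases, had 5.1 to 7.76 CPM against 13.1 to 39.1 CPM. PRICKLE1, a planar cell polarity protein, had 37.2 to 63.4 CPM against 136 to 336 CPM. PCDHB9 had 2.2 to 3.28 CPM against 10.6 to 36.5 CPM, but it belongs to a cluster of near-identical protocadherins whose reads could be shared, so that value is uncertain.

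Others on the looser line were named after their values were seen. FAM60A, a subunit of the SIN3 histone deacetylase complex, had 0.532 to 1.13 CPM against 7.08 to 23.6 CPM (log2 fold change -4.14, SE 0.65, edgeR adjusted p = 0.0792). SLC27A6, a fatty acid transporter, had 0.0252 to 0.103 CPM against 3.14 to 19 CPM. BCHE, the enzyme butyrylcholinesterase, had at most 0.0686 CPM against 1.52 to 20.5 CPM. SLITRK6, a neuronal membrane protein of synapse formation, had at most 0.0343 CPM against 1.37 to 10.6 CPM. The last 3 rest on NLS-2SA-YAP1 values of which some were deposited as 1, so no fold is given.

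**Figure D3:**
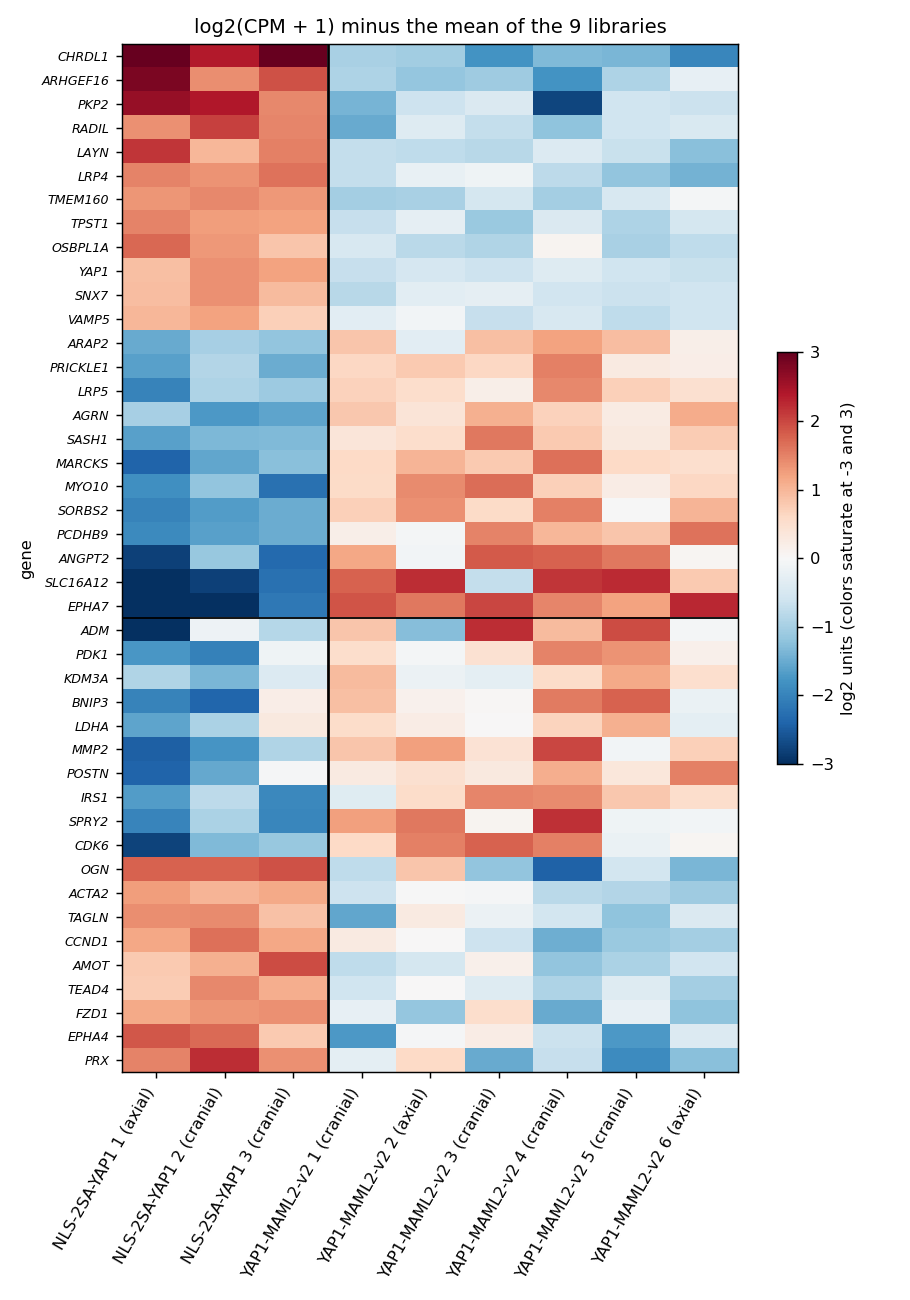
Log2 (CPM + 1) of each gene minus its mean over the 9 libraries (colors saturate at -3 and 3), with libraries in columns. The upper block holds the 12 higher and 12 lower genes of smallest p. The lower block holds a selection of list genes that differed at an unadjusted p under 0.05. The 3 NLS-2SA-YAP1 columns share their color in every row of the upper block, which a choice by small p favors. In the lower block, hypoxia genes such as BNIP3 and LDHA lose the shared color in NLS-2SA-YAP1 replicate 3.

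Promoters are shown for the 2 genes of smallest p in each direction that the RefSeq table (GRCm38.p6, the patch release of mm10) holds: Tpst1 and Layn, higher in NLS-2SA-YAP1, and Epha7 and Slc16a12, lower. Each is the 250 bases before the start, 5′ to 3′ on the gene's strand. Capitals mark matches on either strand to GGAATG, a core TEAD site, or GTGGGAA, a core RBPJ site. The motifs share the letters GGAA, so their matches can overlap. Tpst1 is at chr5:130073076-130073325 (plus), Layn at chr9:51077095-51077344 (minus), Epha7 at chr4:28812881-28813130 (plus) and Slc16a12 at chr19:34747329-34747578 (minus).
Tpst1: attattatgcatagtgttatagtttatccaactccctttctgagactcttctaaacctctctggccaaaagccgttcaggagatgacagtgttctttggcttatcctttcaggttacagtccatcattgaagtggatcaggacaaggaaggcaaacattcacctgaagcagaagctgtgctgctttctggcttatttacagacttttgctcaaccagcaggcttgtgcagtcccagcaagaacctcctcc
Layn: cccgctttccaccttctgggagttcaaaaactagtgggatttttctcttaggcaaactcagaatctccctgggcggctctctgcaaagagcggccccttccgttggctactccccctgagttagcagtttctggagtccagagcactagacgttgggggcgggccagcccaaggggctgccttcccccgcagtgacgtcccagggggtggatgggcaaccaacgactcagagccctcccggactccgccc
Epha7: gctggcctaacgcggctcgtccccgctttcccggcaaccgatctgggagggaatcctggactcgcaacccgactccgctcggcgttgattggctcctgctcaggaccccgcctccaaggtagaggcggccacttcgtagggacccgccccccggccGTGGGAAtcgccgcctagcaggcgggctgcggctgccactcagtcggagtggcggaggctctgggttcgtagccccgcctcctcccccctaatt
Slc16a12: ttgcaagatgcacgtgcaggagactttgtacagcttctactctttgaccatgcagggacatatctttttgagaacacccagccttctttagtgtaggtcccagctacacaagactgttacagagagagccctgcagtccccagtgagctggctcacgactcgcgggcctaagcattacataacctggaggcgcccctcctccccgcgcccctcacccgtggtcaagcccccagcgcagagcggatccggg
No window but that of Epha7 held either motif, and its RBPJ match starts 94 bases before the gene start. Of the 28 genes on the looser line 18 were in the table, of which 1 (Yap1) held the TEAD letters and 1 (Epha7) the RBPJ letters, beside 12.6% and 5.42% of 32851 promoters of the same length. GC content was 44.8% in Tpst1, 61.2% in Layn, 69.2% in Epha7 and 57.6% in Slc16a12, around a median of 52.4% over all promoters. A match is a description of letters and not a binding site, and these windows leave out enhancers.

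Hippo pathway genes stood on both sides: of 31 tested genes 13 were higher and 18 lower, with a median log2 fold change of -0.12. At the top of the pathway, the scaffold WWC1 (KIBRA), which helps to activate LATS kinases, had 40.3 to 56.5 CPM against 1.39 to 27.4 CPM. The kinase TAOK1, which activates the MST kinases, had 51.6, 129 and 121 CPM against 195 to 323 CPM. LATS2, the kinase that phosphorylates YAP1, had 21.2, 45.7 and 39.3 CPM against 59.5 to 224 CPM. These 3 genes did not overlap between constructs, and they went both ways. Among the proteins that hold YAP1, AMOT had 34.8, 42.6 and 79.4 CPM against 8.16 to 22.1 CPM (log2 fold change 1.99, SE 0.40, edgeR adjusted p = 0.141), and the phosphatase PTPN14 had 167 to 204 CPM against 51.2 to 134 CPM. Of the DNA-binding partners, TEAD4 had 12.3, 20.2 and 15.8 CPM against 2.85 to 6.91 CPM (1.83, SE 0.48), and TEAD2 had 8.77, 11.3 and 11.5 CPM against 23.6 to 55.5 CPM (-1.70, SE 0.37). TEAD4 and TEAD2 thus stood in opposite order, each without overlap, at edgeR adjusted p-values of 0.199 and 0.154. Of the 31 genes, 5 were higher and 3 lower without overlap, beside 4.8% and 4.32% of all genes. YAP1, the delivered gene, is counted among those 5.

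Canonical YAP1-TEAD targets did not move one way between the constructs. Of 22 tested, NLS-2SA-YAP1 was higher in 9 and lower in 13, 2 in each direction had an unadjusted p under 0.05, near the 5.47% and 7.65% of all genes, and the median log2 fold change was -0.14. Under the 23 settings tried the number higher ran from 6 to 13 and the median from -0.61 to 0.14, so its sign was not stable. CTGF, the usual reporter of YAP1 activity, had 29, 716 and 2913 CPM in NLS-2SA-YAP1 against 467 to 5106 CPM in YAP1-MAML2-v2, a spread within a construct far beyond the gap between them (edgeR adjusted p = 0.616). CYR61, its close relative, had 277 to 462 CPM against 2.37 to 682 CPM (edgeR adjusted p = 0.925), and its sign changed when NLS-2SA-YAP1 replicate 1 was left out. Both were chosen after their values were seen. TGFB2, a target that encodes a TGF-beta ligand, had 29.5, 45.9 and 52.8 CPM against 67.3 to 362 CPM without overlap.

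Notch genes, the pathway of MAML2, were more often lower than higher, though not uniformly. Of 21 tested, 7 were higher and 14 lower, and besides MAML2 itself only MAML3, a coactivator of the same family, had an unadjusted p under 0.05. MAML3 had 6.26, 14.2 and 8.79 CPM against 12.2 to 53.2 CPM, with an overlap at YAP1-MAML2-v2 replicate 1. The median log2 fold change was -0.47 (-0.59 to -0.16 over the settings tried), beside -0.03 over all genes. Under the 23 settings 13 to 17 Notch genes were lower. MAML2, part of the delivered fusion, is counted among the lower genes.

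Of 19 TGF-beta genes tested 1 was lower without overlap, and of 31 BMP genes 1 was higher and 1 lower. These counts are near the shares over all genes, 4.8% higher and 4.32% lower without overlap. All 3 TGF-beta ligands were lower by fit in NLS-2SA-YAP1, with log2 fold changes of -1.30 for TGFB1, -1.90 for TGFB2 and -1.64 for TGFB3 (edgeR adjusted p-values of 0.276, 0.240 and 0.347), but TGFB1 and TGFB3 overlapped between the constructs. Over 19 TGF-beta ligands, receptors and SMADs, 10 were higher and 9 lower. SMAD7, which blocks both pathways, had 23.8, 90.2 and 102 CPM against 12.8 to 51.1 CPM. Of 31 BMP genes tested, 12 were higher and 19 lower, and CHRDL1 was the 1 that passed the test.

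WNT genes included 2 of the 28 on the looser line, the receptors LRP4 (above) and LRP5. LRP5 is the co-receptor that passes the WNT signal on with a frizzled protein, and it had 15, 32.6 and 29.2 CPM in NLS-2SA-YAP1 against 71.9 to 173 CPM with a median of 97.4 CPM (log2 fold change -2.10, SE 0.37, edgeR adjusted p = 0.0956). The frizzled receptor FZD1 was on the other side with 297, 340 and 351 CPM against 46.8 to 196 CPM (1.83, SE 0.40, edgeR adjusted p = 0.154). LRP5 and FZD1, partners in 1 receptor complex, thus stood in opposite order. The ligand WNT9A had 25.9 to 45.1 CPM against 2.62 to 15.6 CPM. NKD1, a feedback inhibitor that WNT signaling induces, had 4.52, 0.583 and 2.05 CPM against 6.24 to 63.3 CPM. None of these 4 overlapped between the constructs. DKK3, a secreted member of the Dickkopf family, had 255, 744 and 1051 CPM against 169 to 264 CPM, with NLS-2SA-YAP1 replicate 1 inside the fusion range. Over 32 tested WNT genes, 19 were higher and 13 lower, with a median log2 fold change of 0.46 (-0.01 to 0.83 over the settings tried). Of the 32, 6 were higher and 2 lower without overlap, beside 4.8% and 4.32% of all genes.

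EPH receptors stood on both sides. EPHA4 had 80.5, 71.6 and 37.8 CPM in NLS-2SA-YAP1 against 5.78 to 25.1 CPM (log2 fold change 2.12, SE 0.48, edgeR adjusted p = 0.154), opposite to EPHA7. EPHB4, a receptor of veins, had 18.3 to 46.1 CPM against 47.7 to 126 CPM (edgeR adjusted p = 0.332). Of 17 EPH and ephrin genes 10 were higher and 7 lower. UNC5B, a netrin receptor of guidance and vessels, had 9.67, 26 and 15.4 CPM against 39.4 to 126 CPM (-2.08, SE 0.47, edgeR adjusted p = 0.154). SEMA4C, a membrane semaphorin, had 9.77 to 20.1 CPM against 23.4 to 52 CPM. UNC5B and SEMA4C were the 2 genes free of overlap among 27 semaphorins, plexins, SLITs and netrins. Over all genes, 4.32% were lower without overlap.

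IRS1, the adaptor that passes insulin and IGF receptor signals on, had 13, 25.1 and 10.7 CPM in NLS-2SA-YAP1 against 33.8 to 122 CPM (log2 fold change -2.30, SE 0.49, edgeR adjusted p = 0.154). SPRY2, a feedback inhibitor of receptor tyrosine kinases, had 4.76, 10.7 and 4.87 CPM against 19.8 to 103 CPM (-2.83, SE 0.69, edgeR adjusted p = 0.177). Neither gene overlapped. IGF2, the fetal growth factor whose mRNA IGF2BP1 binds, had 1146, 1166 and 1774 CPM against 4.86 to 888 CPM, a wide range in the fusion tumors but with no overlap (edgeR adjusted p = 0.381). IGF1 had 23.7 to 57.6 CPM against 34.7 to 331 CPM and overlapped. IGFBP7, a secreted IGF-binding protein, had 270 to 407 CPM against 38.7 to 256 CPM. FGFRL1, an FGF receptor without a kinase domain, had 201 to 256 CPM against 17.3 to 125 CPM. Of 13 IGF genes 6 were higher and 7 lower, and of 17 FGF genes 10 were higher and 7 lower.

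Hypoxia targets were lower almost without exception: 25 of 26 had a negative log2 fold change, with a median of -1.02 beside -0.03 over all genes, and 9 of 26 had an unadjusted p under 0.05 in that direction, where 7.65% of all genes did. None passed over all genes (smallest edgeR adjusted p = 0.154). The number lower stayed between 23 and 25 under all 23 settings, and the median between -1.44 (without NLS-2SA-YAP1 replicate 3) and -0.75 (without NLS-2SA-YAP1 replicate 2). These genes are switched on together by the HIF transcription factors when oxygen is low, so members are not independent. ADM, the vasodilator peptide adrenomedullin, had 1.09, 21.4 and 12.8 CPM against 9.33 to 116 CPM (-2.63, SE 0.58). PDK1, a kinase that inhibits pyruvate dehydrogenase, had 6.16, 4.91 and 21 CPM against 22.1 to 66.1 CPM (-1.91, SE 0.51). KDM3A, a histone demethylase, had 31.6, 22.7 and 45.4 CPM against 48.9 to 135 CPM. PDK1 and KDM3A were the 2 of 26 members without overlap, beside 4.32% of all genes that were lower without overlap. LDHA, which makes lactate, had 171, 268 and 632 CPM against 423 to 1074 CPM, and BNIP3, a mitophagy receptor, had 5.68, 4.12 and 29.7 CPM against 22.1 to 90.7 CPM. In both, NLS-2SA-YAP1 replicate 3 lay inside the fusion range.

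FLT1, a VEGF receptor, had 13.5, 15.3 and 39.7 CPM against 25 to 134 CPM with an overlap (edgeR adjusted p = 0.214), and the ligand VEGFA, which is also a hypoxia target, had 73.9, 23.2 and 141 CPM against 59.9 to 469 CPM (edgeR adjusted p = 0.435). VEGFC, a ligand of lymphatic vessels, had 0.145 to 1.03 CPM against 0.818 to 10.9 CPM. The 13 endothelial markers summed to 256 to 651 CPM with NLS-2SA-YAP1 and 253 to 799.7 CPM with the fusion, and the part of these cells in the ANGPT2 difference was not tested. In bulk tissue, fewer cells of a type and less RNA per cell cannot be told apart.

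OGN, the small proteoglycan osteoglycin that marks meningeal fibroblasts, had 4539, 4562 and 5022 CPM with NLS-2SA-YAP1, against 248 to 2374 CPM with a median of 685 CPM in YAP1-MAML2-v2 (log2 fold change 2.55, SE 0.57, edgeR adjusted p = 0.154). MMP2, a protease that degrades basement membrane collagen, had 54, 86 and 159 CPM against 283 to 1190 CPM (-2.65, SE 0.58, edgeR adjusted p = 0.154). POSTN, the matricellular protein periostin, had 14.8, 28.1 and 81.4 CPM against 99.6 to 239 CPM. Neither MMP2 nor POSTN overlapped, and in both the extra axial NLS-2SA-YAP1 replicate 1 was the lowest of all libraries. ADAMTS5, an aggrecan-cutting protease, had a deposited value of 1 in NLS-2SA-YAP1 replicate 1 and 10.1 and 1.16 CPM in replicates 2 and 3, against 12.8 to 114 CPM. LOXL1, an enzyme that cross-links elastin, had 40 to 48.3 CPM against 4.73 to 26.5 CPM, and MFAP2, a microfibril protein, had 1.72 to 2.68 CPM against 3.05 to 52.8 CPM. Of 23 matrix proteases and inhibitors 6 were higher and 17 lower (median log2 fold change -0.74, and 14 to 18 lower over the settings).

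Collagens were split, with 13 higher and 14 lower. COL4A5, a basement membrane chain, had 83.7 to 130 CPM against 6.99 to 60.3 CPM (log2 fold change 2.22, SE 0.60, edgeR adjusted p = 0.214). COL26A1 had 40.3, 50.9 and 16.2 CPM against 0.226 to 11.2 CPM, and COL16A1 had 227 to 289 CPM against 86.5 to 180 CPM. COL25A1, a membrane collagen, was the separated member in the other direction with 0.278 to 0.483 CPM against 1.23 to 15.8 CPM. These 4 were the collagens without overlap, 3 of 27 higher and 1 lower, beside 4.8% and 4.32% of all genes.

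ACTA2 and TAGLN, both of smooth muscle and myofibroblasts, stood high in all 3 NLS-2SA-YAP1 tumors. ACTA2, smooth muscle actin, had 228, 194 and 210 CPM against 45 to 94.2 CPM with a median of 57.4 CPM (log2 fold change 1.67, SE 0.31, edgeR adjusted p = 0.12). TAGLN, the actin-binding protein transgelin, had 937, 948 and 654 CPM against 121 to 431 CPM (1.78, SE 0.38, edgeR adjusted p = 0.154). The pericyte and smooth muscle markers as a list did not follow: of 11 tested 4 were higher and 7 lower, and their summed level was 1522 to 2181 CPM against 932 to 3019 CPM. PRX, periaxin, a protein of myelinating Schwann cells and lens, had 129, 215 and 120 CPM against 11.6 to 69.1 CPM (2.49, SE 0.52, edgeR adjusted p = 0.153). The Schwann cell list summed to 554 to 705 CPM against 155 to 609.8 CPM, so the 2 constructs overlapped at YAP1-MAML2-v2 replicates 1 and 2, and the part of nerve cells in the PRX difference was not tested.

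CCND1, cyclin D1, a regulator of entry into the cell cycle, had 1604, 2251 and 1597 CPM in NLS-2SA-YAP1 against 260 to 861 CPM with a median of 408 CPM (log2 fold change 1.87, SE 0.44, edgeR adjusted p = 0.166). Its kinase partner CDK6 had 3.41, 11 and 12.8 CPM against 25.5 to 102 CPM (-2.91, SE 0.63, edgeR adjusted p = 0.154). Both were free of overlap and opposite in order. Over 33 cell cycle genes 24 were higher and 9 lower (median 0.35), but the number higher ran from 11 (median -0.10) without the region term to 30 in extra cranial libraries only, and it was 14 (median -0.11) without NLS-2SA-YAP1 replicate 2.

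LRAT and RDH10 act on retinol, the former chosen after its values were seen. LRAT, which stores retinol as esters, had 5.56, 5.28 and 1.29 CPM against at most 0.339 CPM (edgeR adjusted p = 0.12). RDH10, a meningeal enzyme that oxidizes retinol, had 65.7, 90 and 139 CPM against 6.77 to 51.1 CPM (log2 fold change 1.82, SE 0.56, edgeR adjusted p = 0.245). Neither overlapped. Immediate early genes were mixed: IER2 had 9.96 to 26.7 CPM against 34.1 to 207 CPM, and the transcription factor EGR3 had 12.6 to 108 CPM against 1.05 to 12.1 CPM, while FOSL2, an AP-1 subunit, had 57.3, 67.7 and 119 CPM against 89.7 to 513 CPM. HOX genes, which mark position along the body, were at deposited values of 0 or 1 in many libraries. Of 13 tested 11 were lower and 2 higher, so those directions rest on few libraries.

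**Figure D4:**
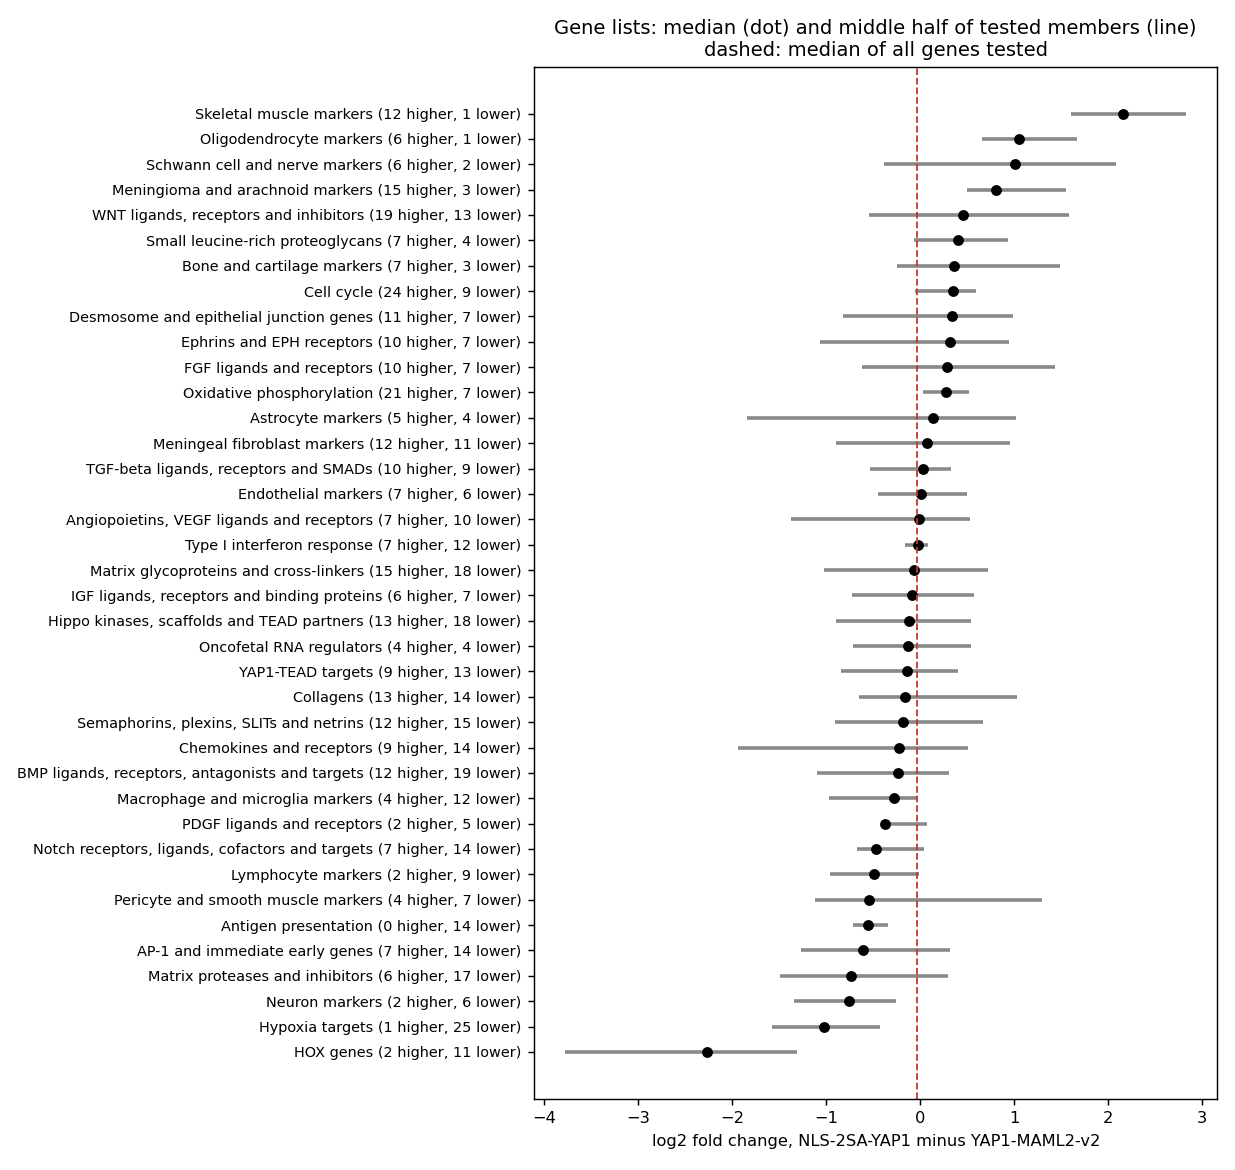
Median log2 fold change (dot) and range from the lower to the upper quartile (line) of the tested members of gene lists with 7 or more, NLS-2SA-YAP1 minus YAP1-MAML2-v2, with the numbers higher and lower. The list of p53, RB and CDK inhibitor genes is not drawn (13 tested, 5 higher and 8 lower, median -0.62). The dashed line is the median of all genes tested, -0.03. Hypoxia targets (25 of 26 lower) and HOX genes (11 of 13 lower) lie farthest to the left, and skeletal muscle markers (12 of 13 higher) farthest to the right.

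Skeletal muscle markers summed to 13.7, 207 and 740 CPM in replicates 1 to 3 of NLS-2SA-YAP1 and to 25 to 249 CPM in the fusion tumors. Muscle was thus highest in an NLS-2SA-YAP1 tumor and lowest in another. The part of muscle in the difference of LRP4 or of other genes was not tested. Meningeal fibroblast markers did separate the constructs, at 8050 to 8945 CPM against 2442 to 5462 CPM, but OGN alone made up most of the NLS-2SA-YAP1 sums, and 12 of 23 tested members were higher and 11 lower. Choroid plexus and ependyma markers separated too, at 137 to 440 CPM against 26.5 to 128 CPM, of which AQP1, a water channel also found elsewhere, gave 79.7 to 250 CPM against 26.4 to 87.5 CPM, and 8 of the 12 markers were too low to be tested. Astrocyte markers summed to 353 to 1356 CPM against 178 to 762 CPM. Of 18 meningioma and arachnoid markers tested, 15 were higher and 3 lower, but many of them were at 0 or 1 in some tumor. Without genes that jump from 0 or 1 to over 100, 8 members were left, 6 higher and 2 lower, and without NLS-2SA-YAP1 replicate 1 the split was 11 to 7.

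Macrophage and microglia markers summed to 758 to 1279 CPM in NLS-2SA-YAP1 against 864 to 2881 CPM, and CSF1R, the macrophage growth factor receptor, had 110, 158 and 141 CPM against 120 to 224 CPM (edgeR adjusted p = 0.575). MSR1, a macrophage scavenger receptor, was the 1 of 16 tested members without overlap, at 18.7 to 40.6 CPM against 42.9 to 177 CPM (edgeR adjusted p = 0.262). Of all genes tested, 4.32% were lower without overlap. Lymphocyte markers summed to 59 to 135 CPM against 16.7 to 255 CPM. All 14 antigen presentation genes were lower by fit, with a median log2 fold change of -0.55 and none at an unadjusted p under 0.05. Their direction turned without YAP1-MAML2-v2 replicate 6, when 8 of 14 were higher (median 0.06). PSMB10, an immunoproteasome subunit, had 4.5, 2.61 and 7.04 CPM against 1.13 to 18.4 CPM.

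Region offered a check in separate libraries, because the 6 extra cranial and the 3 extra axial tumors share none. Across all genes the difference between constructs in extra cranial tumors correlated with that in extra axial tumors at r = 0.151, and 57.8% of genes had the same sign; genes are not independent replicates. Of the 100 higher genes of smallest p in extra cranial tumors, 80 were also higher in the extra axial tumors, where 52.1% of all genes were. Of the 100 lower genes 71 were lower in the extra axial tumors, where 52.1% of all genes were higher. The sizes shrank, from a median of 2.28 to 1.20 log2 units for the higher and from -2.68 to -1.09 for the lower genes. A choice by small p in extra cranial tumors favors such shrinkage. CHRDL1, called in a fit that held both regions, had 5.03 in extra cranial and 5.66 in extra axial tumors. CFD and CYP2E1, named after their values were seen and higher in extra cranial tumors, were lower in extra axial ones (-3.15 and -3.47), and both have libraries at 0 or 1. The extra axial side rests on 1 NLS-2SA-YAP1 library.

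**Figure D5:**
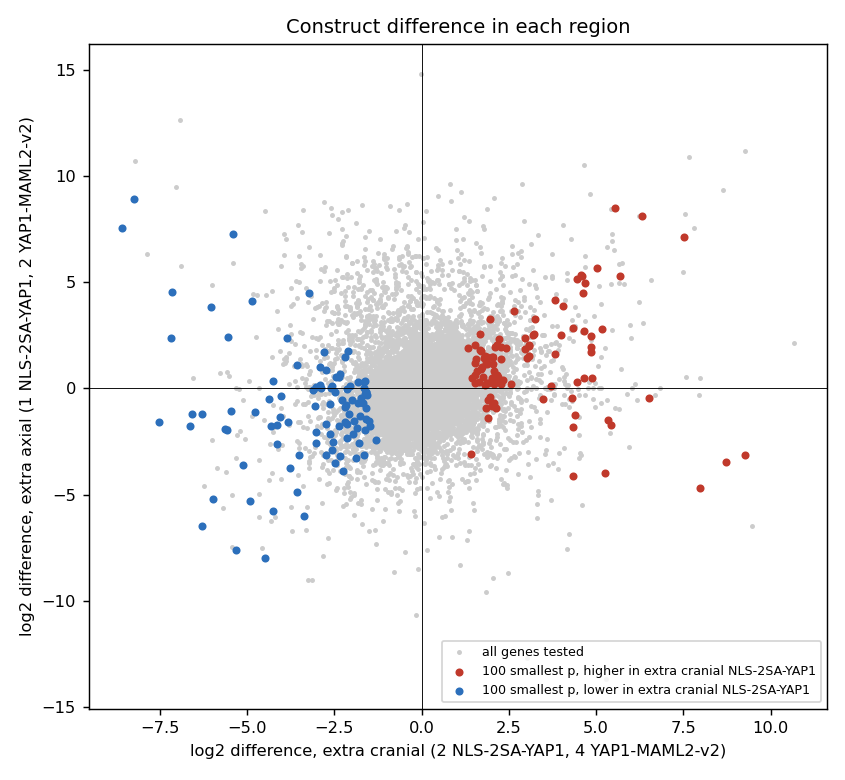
Difference of mean log2 CPM between constructs in extra cranial tumors (horizontal; 2 NLS-2SA-YAP1 and 4 YAP1-MAML2-v2) against that in extra axial tumors (vertical; 1 and 2), for all genes tested. Of the 100 genes chosen as higher in extra cranial tumors (red) 80 lie above 0 on the vertical axis, and of the 100 chosen as lower (blue) 71 lie below it.

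A test of the interaction asked whether the difference between constructs itself depended on region. It called 1 gene of 13487 (0.00741%), GABRB2, a GABA-A receptor subunit, with 963 genes at an unadjusted p under 0.05. GABRB2 had 12.8 CPM in the extra axial NLS-2SA-YAP1 tumor and was listed at 0 or 1 in the extra cranial ones, whereas YAP1-MAML2-v2 had 0 and 0.0282 CPM in its extra axial and 19.2 to 31.4 CPM in its extra cranial tumors. The fitted interaction of 20.07 log2 units (edgeR adjusted p = 0.0161) rests on those values and is no size.

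The left-out intra ventricular library, YAP1-MAML2-v2 replicate 7, took no part in the fit and so gives a further value for each gene above. Of the 25 genes that passed the threshold or came from the lists of 12, it lay on the YAP1-MAML2-v2 side of the NLS-2SA-YAP1 range in 21, 12 of 13 higher genes and 9 of 12 lower ones. It fell inside the range of the other fusion tumors in 9. A value between the ranges of the constructs was counted on the YAP1-MAML2-v2 side, which favors that side. SLC16A12 was such a case, at 4.05 CPM between 3.62 and 12.3 CPM. The same count over all genes was not made. On a scaling over all 10 libraries, replicate 7 had 4.76 CPM of CHRDL1, 0 of IGF2BP1, 122 CPM of YAP1, 33.6 CPM of ANGPT2 and 37.6 CPM of EPHA7. The exceptions were OSBPL1A with 131 CPM and LRP5 with 28.8 CPM, PRICKLE1 with 53.8 CPM and SORBS2 with 1.33 CPM, all inside or beyond the NLS-2SA-YAP1 range. It is a single tumor from another region, so construct and region cannot be told apart for it.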

How the data were processed

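Total RNA of whole frozen tumors was sequenced with a stranded mRNA kit, per the labels' protocols. The deposited values are whole-number estimated counts per gene made by the authors, with mm10 and HTSeq named in the submitters' processing notes. They hold far more genes at 1 than at 2, which plain read counts do not, so no interval or depth limit was computed. Gene symbols are written as in the files, in capitals, and coordinates come from a mouse annotation of mm10, by symbol. Of 16895 genes, 16070 (95.1%) matched.

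The main test was edgeR 4.0.16 (R 4.3.3), quasi-likelihood with robust fitting, TMM scaling, a filter at a minimum count of 10 and a model with region and construct, with Benjamini-Hochberg adjustment over 13487 genes. Alternatives used DESeq2 1.42.0, limma 3.58.1 and other scalings, filters and sample sets. The test was tried on simulated data. The genes named are those past an adjusted p of 0.05, list genes that differed, and the 12 of smallest p in each direction with no library at 0 or 1 and a stable sign; others are said to be chosen after their values were seen. The members and lists were chosen with earlier results of these data known. The line at an adjusted p of 0.1, the fit without the libraries at 0 for Y-linked genes and the list counts under each alternative were added after seeing the data. The intra ventricular library entered only the comparison of single values and the fit of all 10 libraries. Promoter letters are from RefSeq (GRCm38.p6).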

Additional observations from a re-analysis of the deposited data

Results flagged for a closer look

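Among 105 genes checked for a library far from the others of its group, 3 had one, where chance flags about 1 in 20 groups. IGF2BP1 had 0.0282 CPM in YAP1-MAML2-v2 replicate 6 and was listed at 0 in the other 5 fusion tumors, a gap of a single deposited unit. LRAT had 0.339 CPM in the same replicate, against 0.0256 to 0.0853 CPM in the other fusion tumors. PSMB10, the immunoproteasome subunit, had 1.13 CPM in YAP1-MAML2-v2 replicate 2 and 8.25 to 18.4 CPM in the others.

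The interaction test called GABRB2, with an interaction of 20.07 log2 units (edgeR adjusted p = 0.0161). That value rests on libraries at 0 or 1 and on 1 extra axial NLS-2SA-YAP1 tumor. The call was kept with DESeq2 and without YAP1-MAML2-v2 replicates 1, 4 or 5. It was lost with limma-voom, without YAP1-MAML2-v2 replicates 2, 3 or 6, and without NLS-2SA-YAP1 replicates 2 or 3.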

How the results depend on the processing

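The count of 2 genes at an adjusted p under 0.05 was 15 with no region term, 4 with no low-count filter, 665 with DESeq2, 86 with limma-voom and sample quality weights, 18 with limma-trend, 4 with extra cranial libraries only, 1 without the libraries listed at 0 for the Y-linked genes and 28 at an adjusted p under 0.1. DESeq2 called 77 of the 86 voom genes, with the same sign. Leaving out 1 library gave 0 to 6 genes by edgeR: 0 without NLS-2SA-YAP1 replicates 2 or 3 or YAP1-MAML2-v2 replicates 2, 4 or 6 (1084, 1352, 1754, 1673 and 1522 genes at an unadjusted p under 0.05), 4 without YAP1-MAML2-v2 replicate 1 and 6 without its replicate 3. Other scalings, a filter at 50 and all 10 libraries gave 2 or 3, with both calls kept. The removal of genes that jump from 0 or 1 to over 100 gave 2, of which 1 was higher and 1 lower. It kept only 1 of the 2 calls, because IGF2BP1 is itself such a gene and was removed. Same-numbered replicates correlated at 0.246, 0.313 and -0.081 in their deviations. Each correlated best with its own number among replicates 1 to 3, and fusion replicates 4 to 6 were not candidates. That is at most a weak hint of pairing, since 1 of the 3 was not above 0.1. The labels give no shared origin, so the main model has no block. With the number as a replicate block 2 genes passed, neither of them CHRDL1 or IGF2BP1. With that block 11 of 13 antigen presentation genes were higher. The interaction count of 1 became 204 with DESeq2, 0 with limma-voom (1075 genes at an unadjusted p under 0.05) and 0 to 3 without 1 library.

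In extra cranial tumors only, the exact permutation p was 0.133 for YAP1 (difference 1.88) and MAML2 (-1.26), the smallest that design allows; without 1 library the differences were 1.64 to 1.88 and -1.93 to -1.39. CYR61 ran from -0.15 (without NLS-2SA-YAP1 replicate 1) to 1.14 (without YAP1-MAML2-v2 replicate 2) when 1 library was left out, and was -0.15 in extra cranial tumors, -0.013 with the replicate block and -0.28 without the libraries at 0 for Y-linked genes. Of the other values of named genes, 2122 kept direction and side of the threshold, 150 passed it newly and 20 lost it. The causes were not tested.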
